A study of Mus musculus with 22 samples.

Results

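A set of 9 liver genes of glucose and glycogen control was followed through livers of mice with a deleted gene for the bile acid transporter NTCP and through wild-type livers of the same ages. They are Pck1 and G6pc of gluconeogenesis, Pklr of glycolysis, the glucose transporter Slc2a2, glycogen synthase Gys2, glycogen phosphorylase Pygl, and Ppp1r3b, Ppp1r3c and Ppp1r3g, which bring protein phosphatase to glycogen. The 9 were taken by symbol from 47729 gene lines, and the set was chosen by a measured value too, the high Ppp1r3c of the knockout livers at 20 months. Differences of these genes between genotypes at 20 months are therefore given as a description, with no test. All 9 passed the filter on low counts in every comparison.

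The livers came from male C57BL/6 mice, either Slc10a1-/- (KO) or wild type (WT). Slc10a1 encodes NTCP, which takes conjugated bile acids from blood into hepatocytes. There were 3 KO and 3 WT livers at 4 weeks, 6 KO and 4 WT at 8 weeks, and 3 KO and 3 WT at 20 months, 22 libraries of poly(A) RNA in all. How the allele was made, the feeding state and the hour of collection are not given in the sources used here.

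The 4-week libraries held 5496425 to 6956124 counts in genes, the 8-week libraries 18950112 to 26066897 and the 20-month libraries 18032355 to 26789350. A count of 3, the limit that a count of 0 allows for counting error alone, stood for at most 0.641 CPM (counts per 1000000, with library totals scaled by TMM factors). Slc10a1 itself, counted over the whole gene, lay between 49.4 and 253 CPM in KO livers and between 154.5 and 701 CPM in WT livers, and no KO library reached a WT library of its age. Counts over the gene do not show which part of it was deleted. Its log2 fold change was -1.93 at 4 weeks (edgeR's quasi-likelihood test, Benjamini-Hochberg adjusted p = 0.0117) and -2.72 at 8 weeks (9.00e-05), and the 4-week call was lost without WT library 2 or 3 or KO library 3. At 20 months its log2 fold change of -1.49 (SE 0.32) did not pass edgeR's test (adjusted p = 0.821), whereas DESeq2 gave an adjusted p of 0.0108. Hepatocyte markers (7 genes) summed to 50900 to 189000 CPM in KO livers and 40700 to 146000 CPM in WT livers. KO library 1 of 4 weeks stood apart with 50850 CPM, against 127000 to 177000 CPM in the other 5 libraries of that age, and had 9.65% of its reads outside genes, against 6.13% to 7.87%. It was the lowest KO liver of its age for 6 of the 9 genes (G6pc, Pklr, Slc2a2, Gys2, Pygl and Ppp1r3b), and without it 2012 genes were called at 4 weeks, against 1200 with it.

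The liver stores glucose as glycogen after a meal and releases it between meals. Pck1 and G6pc build and free glucose from smaller molecules, Pklr burns it in the last step of glycolysis, and Slc2a2 (GLUT2) lets it cross the hepatocyte membrane both ways. Gys2 lengthens glycogen and Pygl breaks it down. The Ppp1r3 proteins tether protein phosphatase 1 to the glycogen particle, where it switches the synthase on and the phosphorylase off. Insulin, glucagon, glucocorticoids and the circadian clock are all known to set the RNA levels of these genes in the mouse.

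Of the 9, 7 had an entry among RefSeq promoter windows (GRCm38.p6), and Gys2 and Ppp1r3b had none. In the 250 bases before each start, both strands were searched for TGACGTCA (the cAMP response element, CRE), its variant TTACGTCA, the E-box CACGTG of clock factors, the carbohydrate response element (the letters CACGNG and CNCGTG with 5 bases between them), and the D-boxes TTATGTAA and TTACGTAA of Dbp and its relatives. In 4 of the 8 windows of these genes 1 match was found, none overlapping another motif, and these 4 are shown because their genes carry the comparisons that follow. Capitals mark the matched letters, and each line runs 5′ to 3′ on the strand of the gene.
Pck1, chr2:173152823-173153072, plus strand: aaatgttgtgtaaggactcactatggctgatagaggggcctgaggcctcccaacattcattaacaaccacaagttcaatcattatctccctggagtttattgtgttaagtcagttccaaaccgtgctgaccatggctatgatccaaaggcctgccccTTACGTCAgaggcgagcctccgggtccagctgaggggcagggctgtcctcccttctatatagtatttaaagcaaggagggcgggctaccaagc
G6pc, chr11:101367466-101367715, plus strand: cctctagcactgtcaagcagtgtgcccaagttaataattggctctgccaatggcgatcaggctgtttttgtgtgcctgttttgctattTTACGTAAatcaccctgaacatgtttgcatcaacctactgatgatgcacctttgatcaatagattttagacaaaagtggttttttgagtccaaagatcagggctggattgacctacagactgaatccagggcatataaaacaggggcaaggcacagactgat
Pklr, chr3:89136373-89136622, plus strand: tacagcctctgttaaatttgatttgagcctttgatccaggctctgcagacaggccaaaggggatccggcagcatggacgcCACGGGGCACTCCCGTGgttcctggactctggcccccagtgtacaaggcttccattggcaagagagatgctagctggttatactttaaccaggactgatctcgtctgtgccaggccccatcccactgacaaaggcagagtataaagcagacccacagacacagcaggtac
Ppp1r3c, chr19:36736605-36736854, minus strand: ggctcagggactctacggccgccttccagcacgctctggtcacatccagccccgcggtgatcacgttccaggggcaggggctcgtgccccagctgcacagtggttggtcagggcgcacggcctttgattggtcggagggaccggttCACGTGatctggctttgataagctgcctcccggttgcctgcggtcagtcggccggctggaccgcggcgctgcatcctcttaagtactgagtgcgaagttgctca

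The CRE variant of Pck1 began 93 bases before the start, in letters that 0.447% of 32851 mouse windows hold. The D-box letters of G6pc began 162 bases before it, with 0.113% of windows holding them. The paired E-box of Pklr, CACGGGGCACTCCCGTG, began 170 bases before the downstream of its 2 starts, and 0.0396% of windows (13 in number) hold such a pair. The E-box of Ppp1r3c began 104 bases before its start, as 6.02% of windows do at some position. The canonical CRE (1.55% of windows) and TTATGTAA (0.819%) were in none of the 8 windows. A match is a run of letters, and no binding was measured.

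Per length of transcript, the genes spanned more than 2 orders of magnitude. Pck1 led with 1402 ± 407 RPKM (SD over all 22 libraries), followed by G6pc with 254 ± 158 and Gys2 with 152 ± 69.5 RPKM. Slc2a2 (65.5 ± 26.4), Pygl (56.6 ± 17.98) and Pklr (43.2 ± 33.5 RPKM) formed a middle tier. The targeting subunits came last, with Ppp1r3b at 30.4 ± 11.5, Ppp1r3c at 18.8 ± 17.1 and Ppp1r3g at 7.93 ± 21.2 RPKM. Pck1 exceeded G6pc in every library, but every other pair of neighbours in this order changed places in 2 to 10 of the 22 libraries. Slc2a2 against Pygl (8 libraries) and Pygl against Pklr (4 libraries), and likewise Pklr against Ppp1r3b (10 libraries), were not separated beyond their spread.

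**Figure D1:**
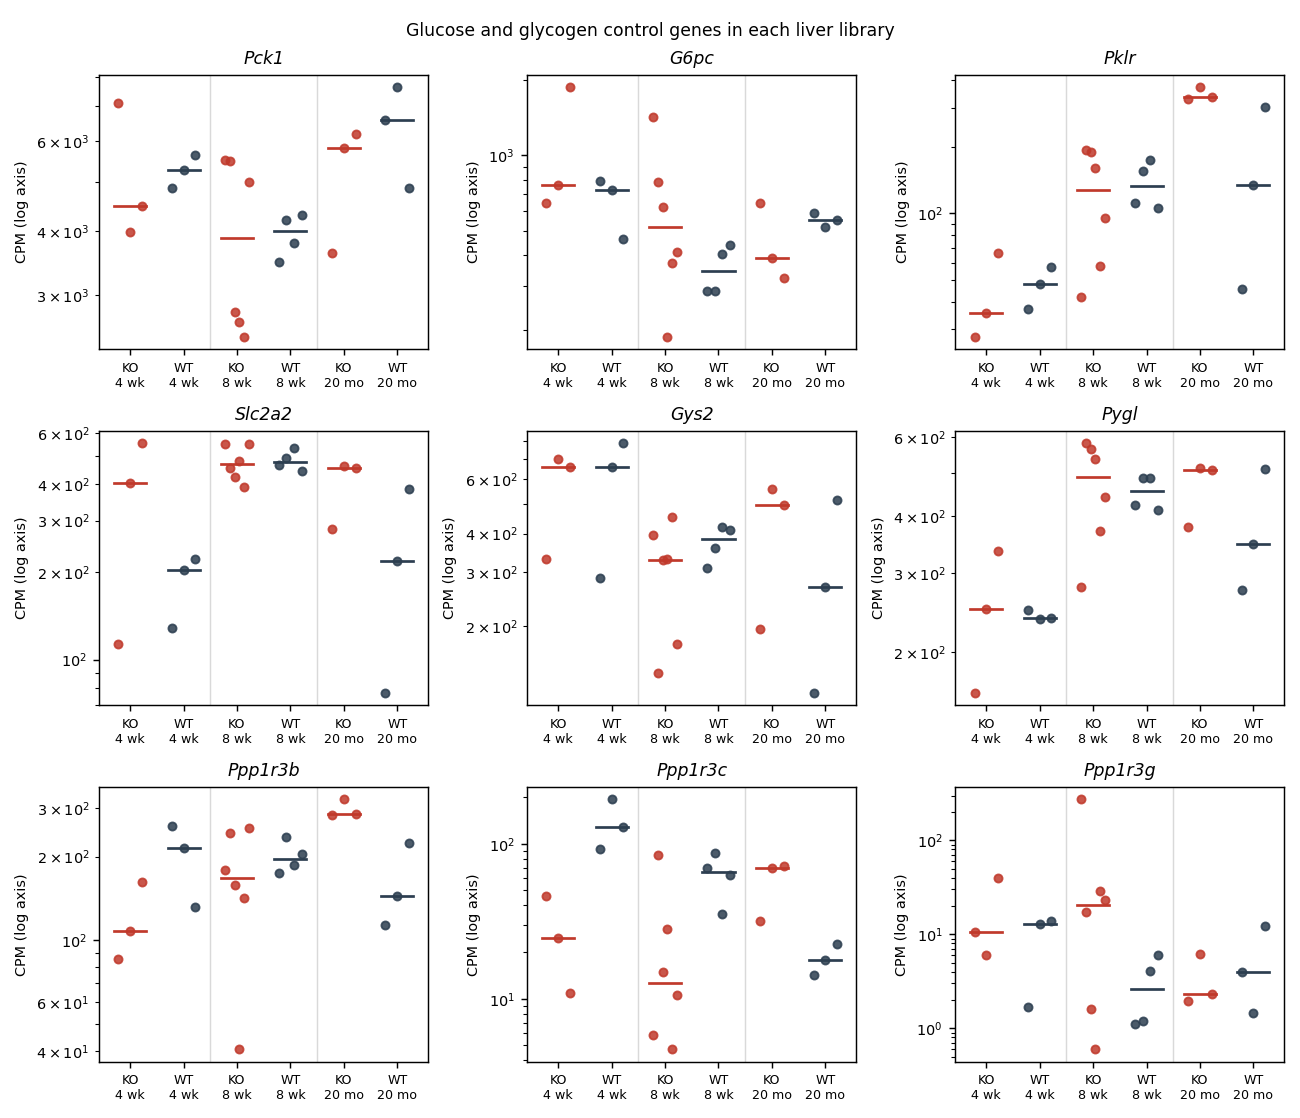
CPM (log axis) of the 9 genes in each of the 22 libraries, KO in red and WT in dark blue within each age, with a line at the group median. Ppp1r3c lies lower in all KO than in all WT libraries at 4 weeks and higher in all KO than in all WT libraries at 20 months, while Pck1 overlaps between genotypes at every age.

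Pck1 (ENSMUSG00000027513, chromosome 2, 173153048 to 173159273 in GRCm38) encodes the cytosolic enzyme that commits carbon to gluconeogenesis. The 4-week values were 7108, 3980 and 4477 CPM in KO livers and 4847, 5261 and 5635 CPM in WT livers. The KO values lay on both sides of the WT values, and the log2 fold change was 0.02 (SE 0.30, edgeR adjusted p = 0.969). At 8 weeks the 6 KO livers ranged from 2493 to 5518 CPM with a median of 3884, against 3489, 4202, 3795 and 4312 CPM in WT livers. The KO livers stood 3 above and 3 below all WT livers, and the log2 fold change of 0.04 (SE 0.28, adjusted p = 0.959) averages over that split. At 20 months it stood at 3636, 5823 and 6199 CPM in KO livers and 6597, 7637 and 4865 CPM in WT livers, which overlap (log2 fold change -0.29, SE 0.36).

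G6pc (ENSMUSG00000078650, chromosome 11, 101367561 to 101377903) encodes the phosphatase that frees glucose for export. It had 645, 764 and 1872 CPM in KO livers and 789, 730 and 463 CPM in WT livers at 4 weeks. KO library 3 was far above the rest, and the fold change did not pass the test (log2 0.76, SE 0.42, edgeR adjusted p = 0.268). At 8 weeks the KO livers ran from 189 to 1416 CPM with a median of 515, against 288, 287, 402 and 437 CPM in WT livers. There, 3 KO livers exceeded all WT livers and 1 lay below them, and the log2 fold change was 0.86 (SE 0.47, adjusted p = 0.508). At 20 months the KO livers had 648, 388 and 322 CPM and the WT livers 586, 517 and 550 CPM, again overlapping.

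Pklr (ENSMUSG00000041237, chromosome 3, 89136142 to 89146784) encodes liver pyruvate kinase. Its exons overlap those of Hcn3 on the other strand, and as the strand setting of the counting is not given in the sources used here, reads of the 2 genes cannot be told apart. At 4 weeks Pklr had 27.7, 35.6 and 66.0 CPM in KO livers and 36.9, 48.1 and 57.3 CPM in WT livers. At 8 weeks the KO livers ran from 41.8 to 193 CPM (median 128), against 111, 156, 174 and 106 CPM in WT livers. The genotypes overlapped at both ages, with log2 fold changes of -0.10 (SE 0.32, edgeR adjusted p = 0.862) and -0.14 (SE 0.41, adjusted p = 0.891). At 20 months it stood at 330, 373 and 336 CPM in KO livers and 45.6, 135 and 303 CPM in WT livers. The KO livers were close together and above all WT livers, which were spread widely, so that the log2 fold change of 1.11 (SE 0.59) became 0.18 against WT library 3 alone.

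Slc2a2 (ENSMUSG00000027690, chromosome 3, 28697903 to 28731359) encodes the main glucose transporter of hepatocytes. It had 113, 405 and 554 CPM in KO livers and 129, 203 and 222 CPM in WT livers at 4 weeks. Of the KO livers, 2 were above all WT livers and the other was below them (log2 fold change 0.99, SE 0.49, edgeR adjusted p = 0.220). With no filter on low counts the same 6 livers gave 1.00 (adjusted p = 0.0188), and without KO library 1 it was 1.43 (0.00683). At 8 weeks it was the steadiest of the 9 between genotypes, with 390 to 552 CPM (median 469) in KO livers and 464, 493, 533 and 443 CPM in WT livers (log2 fold change 0.00, SE 0.13, adjusted p = 0.990). At 20 months the KO livers had 282, 464 and 453 CPM and the WT livers 76.8, 218 and 386 CPM, and the log2 fold change of 0.81 (SE 0.54) was 0.04 against WT library 3 alone.

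Gys2 (ENSMUSG00000030244, chromosome 6, 142422613 to 142473109) encodes the liver glycogen synthase. Its 4-week values were 330, 699 and 660 CPM in KO livers and 287, 658 and 787 CPM in WT livers, so that each genotype held 1 low and 2 high livers (log2 fold change 0.01, SE 0.41, edgeR adjusted p = 0.992). At 8 weeks the KO livers ran from 140 to 452 CPM (median 329) against 309, 358, 421 and 411 CPM in WT livers (log2 fold change -0.29, SE 0.29, adjusted p = 0.675). At 20 months it stood at 196, 559 and 494 CPM in KO livers and 121, 268 and 514 CPM in WT livers, which overlap.

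Pygl (ENSMUSG00000021069, chromosome 12, 70190811 to 70231488) encodes the phosphorylase that releases glucose units from glycogen. It had 162, 250 and 335 CPM in KO livers and 248, 237 and 238 CPM in WT livers at 4 weeks, so the WT livers sat within the KO range (log2 fold change 0.08, SE 0.27, edgeR adjusted p = 0.869). At 8 weeks the KO livers ran from 279 to 581 CPM (median 488), against 425, 485, 487 and 414 CPM in WT livers (log2 fold change 0.05, SE 0.19, adjusted p = 0.928). At 20 months the KO livers had 378, 513 and 506 CPM and the WT livers 275, 348 and 509 CPM. The synthase and the phosphorylase thus overlapped between genotypes at all 3 ages.

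Ppp1r3b (ENSMUSG00000046794, chromosome 8, 35375739 to 35388139) encodes the subunit known as G-L, the classical glycogen-targeting subunit of liver. It had 85.8, 108 and 162 CPM in KO livers and 259, 215 and 132 CPM in WT livers at 4 weeks. The 2 lowest KO livers were below all WT livers, but the fold change did not pass the test (log2 -0.74, SE 0.32, edgeR adjusted p = 0.161). At 8 weeks the KO livers ran from 40.5 to 254 CPM (median 168) against 175, 236, 187 and 204 CPM in WT livers (log2 fold change -0.21, SE 0.40, adjusted p = 0.836). At 20 months it stood at 284, 322 and 285 CPM in KO livers and 114, 144 and 224 CPM in WT livers, without overlap, and the log2 fold change of 0.89 (SE 0.28) was 0.39 against WT library 3 alone.

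Ppp1r3c (ENSMUSG00000067279, chromosome 19, 36731731 to 36736653) encodes PTG, protein targeting to glycogen, another targeting subunit. At 4 weeks it fell to 46.0, 24.5 and 10.9 CPM in KO livers, against 92.7, 193.5 and 129 CPM in WT livers. Every KO liver was below every WT liver, and the highest KO value was at 46.0 CPM while the lowest WT value was at 92.7 CPM. The log2 fold change was -2.30 (SE 0.48, edgeR adjusted p = 0.0227, 0.203 of the WT level), and DESeq2 gave an adjusted p of 2.98e-05. The call was lost without WT library 2 (adjusted p = 0.0869), WT library 3 (0.0812) or KO library 2 (0.0505), with the log2 fold change between -2.90 and -1.91 in all 6 fits that left out 1 library. It was also lost when all 22 libraries shared 1 estimate of spread (adjusted p = 0.0667).

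At 8 weeks Ppp1r3c ran from 4.73 to 84.5 CPM with a median of 12.7 in KO livers, against 69.7, 87.3, 35.3 and 62.5 CPM in WT livers. Of the 6 KO livers, 5 were below all 4 WT livers, and KO library 2, at 84.5 CPM, was among the WT values. The log2 fold change of -1.34 (SE 0.73) did not pass edgeR's test (adjusted p = 0.505), and without KO library 2 it was -2.32. At 20 months it had 31.9, 70.0 and 72.4 CPM in KO livers and 14.3, 17.7 and 22.4 CPM in WT livers. All KO livers were above all WT livers, with a log2 fold change of 1.67 (SE 0.33) that ranged over 1.49 to 1.96 with 1 library left out and was 1.36 against WT library 3 alone. The WT mean was 138 ± 51.0 CPM at 4 weeks, 63.7 ± 21.6 at 8 weeks and 18.2 ± 4.07 at 20 months (SD, n = 3, 4 and 3), whereas the KO mean was 27.1 ± 17.7, 24.8 ± 30.5 and 58.1 ± 22.7 CPM (n = 3, 6 and 3).

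Ppp1r3g (ENSMUSG00000050423, chromosome 13, 35958839 to 35970388) encodes a targeting subunit described in mouse liver as induced by fasting. It had 10.6, 6.03 and 39.7 CPM in KO livers and 1.68, 12.8 and 14.0 CPM in WT livers at 4 weeks, which overlap (log2 fold change 1.00, SE 0.77, edgeR adjusted p = 0.429). Without KO library 3 that value was -0.13. At 8 weeks it ran from 0.598 to 273 CPM with a median of 20.4 in KO livers, against 1.10, 1.19, 4.03 and 6.06 CPM in WT livers. Though 4 KO livers were above all WT livers, the log2 fold change of 4.24 had an SE of 1.57 (adjusted p = 0.474), and it was 2.27 without KO library 1. Those 4 livers (KO libraries 1, 2, 5 and 6) also differed in markers. Their hepatocyte markers summed to 149200 to 188800 CPM, against 92310 and 81710 in KO libraries 3 and 4 and 84000 to 97100 in WT livers. Macrophage markers (8 genes) summed to 679 to 848 CPM there, against 316 and 324 in KO libraries 3 and 4 and 345 to 475 in WT livers. The part of this split in the values was not tested. The highest of the 22 libraries held 456 times the lowest. At 20 months it stood at 1.95, 6.21 and 2.33 CPM in KO livers and 3.96, 1.45 and 12.2 CPM in WT livers. The genotypes overlapped there.

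Of the summed RPKM of the 7 subunits Ppp1r3a to Ppp1r3g, Ppp1r3c made up 47.8%, 30.8% and 8.71% in KO livers and 43.7%, 63.4% and 63.0% in WT livers at 4 weeks. Ppp1r3g made up 11.1%, 7.67% and 32.1% in KO livers there, above the 0.800%, 4.24% and 6.92% of WT livers. In KO library 1 at 8 weeks Ppp1r3g reached 76.2% and Ppp1r3c 1.61% of the sum, while in WT livers of that age Ppp1r3g held 0.605% to 3.72% and Ppp1r3c 27.4% to 45.3%. At 20 months Ppp1r3b was the largest part in every liver, with 60.8% to 76.4% in KO livers and 67.1% to 73.1% in WT livers. The shares are of RNA and carry no test.

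**Figure D2:**
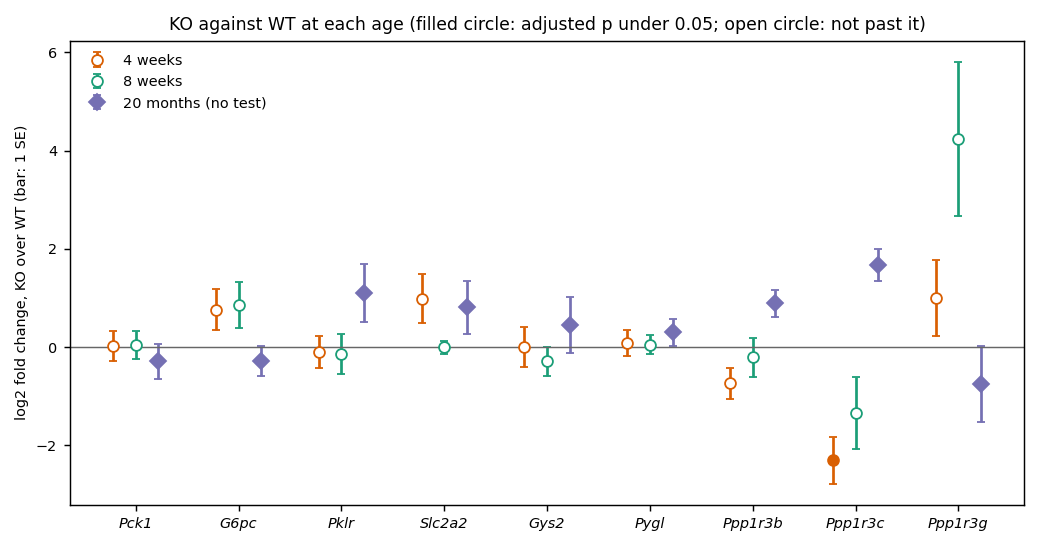
Log2 fold change of KO over WT for the 9 genes at 4 weeks, 8 weeks and 20 months, with bars of 1 SE. The filled circle (Ppp1r3c at 4 weeks, -2.30) is past an adjusted p of 0.05, open circles are not, and diamonds at 20 months carry no test.

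At 4 weeks, 1 of the 9 genes (Ppp1r3c, lower) passed the edgeR threshold of 0.05 on the adjusted p. In the background, 10.8% of 11144 genes tested did, 5.17% higher and 5.60% lower in KO livers, so a share of 1 in 9 is near what all genes gave. All 3 KO livers were below all 3 WT livers for 19.8% of genes. At 8 weeks none of the 9 passed, against 0.0275% of 14522 genes (4 genes). At an unadjusted p under 0.05 edgeR had Ppp1r3g alone, beside 10.4% of all genes, and DESeq2 called none of the 9 and 0.801% of all genes. At 20 months 3 of the 9 (Pklr, Ppp1r3b and Ppp1r3c) had all KO livers above all WT livers, as did 5.64% of 13966 genes. That contrast chose the genes, so nothing is read from the count. The median log2 fold change of the 9 was 0.02 at 4 weeks and 0.00 at 8 weeks, where all genes had 0.01 and 0.02. At 20 months it was 0.46, and nothing is read from this value either, for the same reason.

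Whether the genotype difference itself changed was tested between 8 weeks and 4 weeks. None of the 9 passed (edgeR, 22 libraries), against 0.328% of 15877 genes, and at an unadjusted p under 0.05 none of the 9 did either, against 14.1% of genes. DESeq2 likewise called none of the 9 and 2.75% of genes. Of 130 other pathway genes edgeR called none, with 18 at an unadjusted p under 0.05, and DESeq2 called 3. The estimate for Ppp1r3c was 0.95 (SE 0.98, adjusted p = 0.698), for Ppp1r3g 3.23 (SE 1.86, adjusted p = 0.449) and for Slc2a2 -1.0 (SE 0.58, adjusted p = 0.450). With 1 library left out the estimate for Ppp1r3c ranged from 0.00, without KO library 2 of 8 weeks, to 1.58, without KO library 1 of 4 weeks. That for Ppp1r3g ranged from 1.23, without KO library 1 of 8 weeks, to 4.39, without KO library 3 of 4 weeks. The opposite directions of Ppp1r3c at 4 weeks and 20 months were not tested.

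The rest of the pathway was followed through 131 other genes in 4 lists, of which 124 were tested at 4 weeks. There, edgeR called 6 higher and 9 lower in KO livers. Of 47 regulators tested, 3 rose and 2 fell, of 32 glycolytic genes 1 rose and 5 fell, of 20 gluconeogenic genes 2 rose and 1 fell, and of 25 glycogen genes 1 fell. As a share, 15 of 124 lies close to the background of 10.8%. The median log2 fold change was 0.48 for gluconeogenesis, 0.20 for glycolysis, 0.13 for glycogen and -0.05 for the regulators, against 0.01 for all genes. Among the same 124 genes DESeq2 had 15 higher and 9 lower, so the split of directions depended on the tool. Of 13153 genes it had 6.33% higher and 5.58% lower. Its calls were 6 higher and 1 lower in gluconeogenesis, and 4 higher and 4 lower in glycolysis.

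Among the regulators, Igfbp1, an insulin-repressed gene for a secreted binding protein, averaged 4708 ± 2896 CPM in KO livers and 404 ± 64.1 CPM in WT livers (log2 fold change 3.58, SE 0.46, edgeR adjusted p = 0.00434). Txnip, which restrains glucose uptake, rose as well, with 661 ± 249 CPM in KO livers and 139 ± 32.1 CPM in WT livers (log2 fold change 2.28, adjusted p = 0.00689). Ppargc1a, a coactivator of the fasting programme, averaged 128 ± 21.0 CPM in KO livers and 43.2 ± 4.05 CPM in WT livers (SD, n = 3 each, log2 fold change 1.60, adjusted p = 0.00366). These 3 calls held in all 6 fits that left out 1 library, and none held when all 22 libraries shared 1 estimate of spread (adjusted p 0.118, 0.0927 and 0.154). The glucagon receptor Gcgr fell (log2 fold change -1.28, adjusted p = 0.00933), as did Mlxipl, which encodes the glucose-sensing factor ChREBP (-1.31, adjusted p = 0.0129). Without WT library 3 both lost their call, at adjusted p = 0.0584 and 0.0723, and Mlxipl also without KO library 3 (0.0534).

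Of the glycolytic genes, the phosphofructokinase genes Pfkm (log2 fold change -1.35, edgeR adjusted p = 0.00842) and Pfkl (-1.36, 0.0243) fell, and so did Pfkfb3 (-1.24, 0.0359), which makes their activator fructose-2,6-bisphosphate. Pdk4, which shuts pyruvate out of oxidation, was the riser (log2 fold change 2.74, SE 0.69, adjusted p = 0.0412). In the gluconeogenesis list the aspartate transaminase gene Got1 rose by 2.27 (adjusted p = 0.0163) and the lactate dehydrogenase gene Ldhb by 2.83 (0.0177). The fallers just inside the threshold, named after their values were seen, were Hk3 (-1.31, 0.0442), pyruvate carboxylase Pcx (-1.07, 0.0448) and, as the glycogen list's 1 call, Stbd1 (-1.42, 0.0475). Without WT library 3 the call of Pfkm was lost (adjusted p = 0.0535), as was that of Got1, which also needed KO library 3. Pfkl no longer passed when library 2 or 3 of either genotype was omitted, Pfkfb3 without WT library 2 or 3 or KO library 3, and Ldhb and Pdk4 without any 1 WT library or KO library 3, with adjusted p up to 0.154. When all 22 libraries shared 1 estimate of spread, Mlxipl (adjusted p = 0.0634), Got1 (0.0669), Pfkfb3 (0.0825) and Pdk4 (0.142) did not pass either. Without KO library 1 the lists held 30 calls, and without WT library 3 they held 3.

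**Figure D3:**
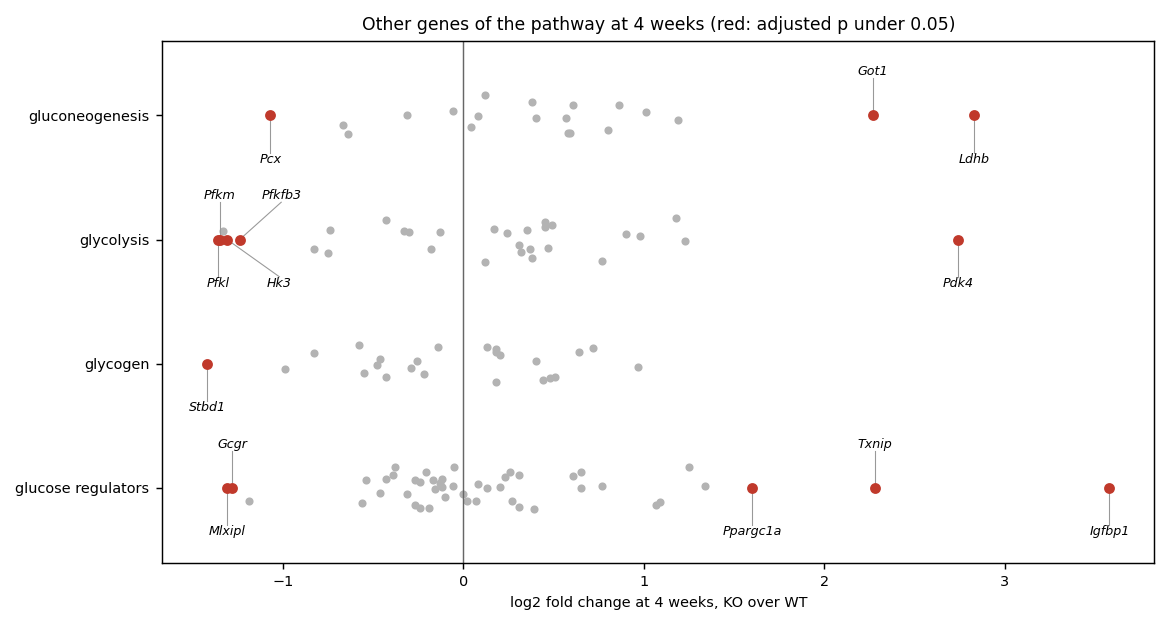
Log2 fold change at 4 weeks, KO over WT, of 122 other genes of glucose and glycogen metabolism in 4 lists, 1 point per gene. The 14 of them past an adjusted p of 0.05 are red and named, from Stbd1 at -1.42 to Igfbp1 at 3.58.

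Markers of hepatocyte zones and of other cell types differed alongside at 4 weeks. Periportal markers (10 genes, Pck1 among them, summed) lay at 16600 to 20100 CPM in KO livers and 10700 to 11400 CPM in WT livers. Pck1 gave 3980 to 7108 CPM of the sum in KO livers and 4847 to 5635 CPM in WT livers. Of the 8 tested apart from Pck1, 4 were higher and 1 lower. Pericentral markers (10 genes) lay at 6070 to 10300 CPM in KO livers and 9920 to 17000 CPM in WT livers, with 3 of 9 tested lower. Of 12 fasting-response genes 3 were higher in KO livers and none lower, where 5.17% of all genes were higher. These 3 are Igfbp1, Ppargc1a and Pdk4, already counted in the pathway lists above, so they add no further calls. The sum of the 12 overlapped, at 12000 to 19500 CPM in KO livers and 15100 to 26500 CPM in WT livers. Erythroid markers (6 genes) summed to 156 to 208 CPM in KO livers and 352 to 491 CPM in WT livers, with 4 of 5 lower, and macrophage markers (8 genes) to 322 to 582 CPM in KO livers and 585 to 700 CPM in WT livers, with 3 lower and 1 higher. Endothelial markers (6 genes) summed to 178 to 245 CPM in KO livers and 281 to 331 CPM in WT livers, with 2 of 6 lower. Cholangiocyte markers (6 genes) summed to 17.1 to 26.5 CPM in KO livers and 34.9 to 40.6 CPM in WT livers, and lymphocyte markers (8 genes) to 2.52 to 4.06 CPM in KO livers and 6.37 to 8.95 CPM in WT livers, with none called of the 1 cholangiocyte gene tested and no lymphocyte gene tested. Their part in the values above was not tested, and in whole liver fewer cells of a type cannot be told apart from less RNA per cell.

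At 8 weeks none of 128 other pathway genes passed edgeR's threshold and 20 had an unadjusted p under 0.05. DESeq2 called Pfkfb3 lower (log2 fold change -1.61, adjusted p = 0.00442) and Irs2, an insulin receptor substrate, higher (2.15, adjusted p = 0.0315), both named after their values were seen. At 20 months none of 127 passed in either tool, with 10 at an unadjusted p under 0.05, where all genes had 0% called by edgeR, 5.53% at an unadjusted p under 0.05 and 0.310% by DESeq2. Without WT library 3 the edgeR count over all genes at 20 months was 71.

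In 2 of the 3 WT livers at 20 months acute-phase genes were high. Saa1, the acute-phase serum amyloid gene, had 259, 172 and 160 CPM in KO livers and 47490, 22340 and 213 CPM in WT livers. The 14 acute-phase genes summed to 17500 to 19000 CPM in KO livers and 16300 to 169000 CPM in WT livers, and the 6 neutrophil markers to 5.68 to 11.3 CPM in KO livers and 5.78 to 2470 CPM in WT livers. WT library 3, without that signal, was the highest WT liver for Pklr, Slc2a2, Gys2, Pygl, Ppp1r3b and Ppp1r3c. Against it alone, with the single WT liver assumed to vary like the KO livers, the log2 fold change of Ppp1r3c was 1.36, that of Ppp1r3b 0.39, that of Gys2 -0.32 and that of Pygl -0.14. KO library 1 at that age had 14.7% of its recorded reads outside genes, against 7% to 8.52% in the other 5, and it was the lowest KO liver for 8 of the 9 genes, all but G6pc. The part of these libraries in the 20-month differences was not tested beyond the values without them.

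Levels also moved with age in WT livers. Age is tied to the sequencing layout (paired-end at 4 weeks and single-end at the other ages, per the file names), so the effect of age and that of the layout cannot be told apart. Between 8 weeks and 4 weeks 6 of the 9 passed, 3 in each direction, where 53.2% of 14003 genes did, so the count is near the background. Pklr rose to 137 ± 33.5 CPM at 8 weeks, against 47.4 ± 10.2 CPM at 4 weeks (SD, n = 4 and 3, log2 fold change 1.51, SE 0.20, edgeR adjusted p = 1.71e-04). Slc2a2 rose to 483 ± 39.0 CPM, against 184 ± 49.4 CPM (log2 fold change 1.37, adjusted p = 1.01e-04), and Pygl to 453 ± 39.0 CPM, against 241 ± 6.33 CPM (0.89, adjusted p = 6.00e-05). The genes of glucose output fell, with Pck1 at -0.43 (SE 0.12, adjusted p = 0.0120) and G6pc at -0.93 (SE 0.21, adjusted p = 0.00396). With no filter on low counts Pck1 did not pass (-0.36, adjusted p = 0.0538) and Ppp1r3g did (-1.58, 0.0329). Ppp1r3c fell too, at -1.13 (SE 0.30, adjusted p = 0.00916), but did not pass without WT library 2 of 4 weeks (0.0565). Gys2 (-0.64, adjusted p = 0.0689), Ppp1r3g (-1.66, 0.0628) and Ppp1r3b (-0.04, 0.894) did not pass. Without WT library 1 of 4 weeks, Gys2 and Ppp1r3g did (adjusted p = 2.18e-04 and 0.0119), and Ppp1r3g also without WT library 4 of 8 weeks (0.0218). Of 12 fasting-response genes, 10 were lower at 8 weeks and 0 higher, where 25.7% of all genes were lower. Some of these are in the pathway lists too. The 12 summed to 3640 to 5120 CPM at 8 weeks and 15100 to 26500 CPM at 4 weeks. Reads outside genes made up 15.4% to 17.8% at 8 weeks and 6.13% to 6.92% at 4 weeks. The part of either in these differences was not tested.

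Between these ages 36 of 127 other pathway genes rose and 50 fell. The gluconeogenesis list had 13 lower and 1 higher of 20, and the glycolysis list 17 lower and 6 higher of 32, against 25.7% of all genes lower and 27.5% higher. Among the most significant were Mpc2 of the mitochondrial pyruvate carrier (log2 fold change -1.93), Pgk1 (-2.12), Ldha (-1.72), Gapdh (-0.86) and Galk1 (-1.75), and the phosphatase inhibitor Ppp1r2 (-0.78). The insulin receptor Insr (1.56), its substrate Irs1 (1.65), and the kinase genes Gsk3b (1.23), Prkaa2 (1.38) and Prkaca (1.07) rose. Their edgeR adjusted p-values lay between 6.59e-07 and 4.07e-05.

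Between 20 months and 8 weeks in WT livers, Ppp1r3c was left untested because the 20-month WT livers had entered its choice, and its log2 fold change was -1.86. Of the other 8 genes, 2 passed and both rose, beside 54.5% of 14322 genes called, 27.7% higher and 26.8% lower. DESeq2 called 3, with Slc2a2 added as lower (log2 fold change -1.13, adjusted p = 0.0299), beside 42.5% of 20269 genes. In edgeR, Slc2a2 passed as lower without WT library 1 of 20 months (-0.73, adjusted p = 0.0352). Pck1 reached 6366 ± 1401 CPM at 20 months, against 3950 ± 379 CPM at 8 weeks (log2 fold change 0.64, SE 0.23, edgeR adjusted p = 0.0420). G6pc reached 551 ± 34.3 CPM, against 354 ± 77.8 CPM (0.59, SE 0.19, adjusted p = 0.0269). The call of Pck1 was lost without any 1 of the 4 WT libraries of 8 weeks or without WT library 2 of 20 months (adjusted p up to 0.137), and that of G6pc without WT library 1 or 2 of 8 weeks (0.0836 and 0.0916). WT libraries 1 and 2 of 20 months are those with high acute-phase genes. With WT library 3 left out and only these 2 kept, the calls numbered 6, with Slc2a2, Gys2, Pygl and Ppp1r3b lower.

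Of 128 other pathway genes, 28 rose and 33 fell over that interval. Glycolysis had 14 higher and 5 lower of 32, with Pfkl (log2 fold change 0.89) and Pgam1 (1.03) among them, while the regulators had 5 higher and 18 lower of 48. Irs1 (-2.74), Prkaa2 (-2.34), Sik2 (-2.06), Ppargc1b (-2.0), Prox1 (-1.52), Foxo3 (-1.37), Gsk3b (-1.35), Insr (-1.16), Prkacb (-0.95) and the glucocorticoid receptor Nr3c1 (-0.91) fell. Their edgeR adjusted p-values lay between 1.60e-05 and 4.17e-04. This comparison shares its 8-week livers with the one before it. Its 20-month WT libraries 1 and 2 had high acute-phase genes (Saa1 at 47490 and 22340 CPM), and their part was not tested. The layout is the same at these ages, but age and the series in the file names cannot be told apart. Reads outside genes made up 7% to 8.52% in the 20-month and 15.4% to 17.8% in the 8-week WT libraries, and the part of this in the age differences was not tested.

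Among livers of 1 genotype and age, Ppp1r3g and Ppp1r3c varied most of the 9. The within-group SD of Ppp1r3g was 2.05 on the log2 scale, larger than in 99.6% of 10630 genes, and that of Ppp1r3c was 1.02 (97.3%). Pklr (0.77), Gys2 (0.70), G6pc (0.69), Slc2a2 (0.65) and Ppp1r3b (0.62) lay between the 89.5th and 94.5th percentile, whereas Pck1 (0.40, 69.7th) and Pygl (0.35, 60.7th) were near the middle of the genes.

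Clock genes also differed among livers of 1 group. The clock gene Arntl was at 45.9 and 40.0 CPM in KO library 1 and WT library 1 of 4 weeks, and at 44.9 and 43.7 CPM in KO libraries 1 and 2 of 8 weeks, against 1.12 to 10.9 CPM in all other libraries. Dbp, whose RNA peaks in antiphase, was at 9.74 and 0.559 CPM in the first pair and at 4.31 and 1.14 CPM in the second. The 9.74 CPM of KO library 1 of 4 weeks lay between KO library 2 (16.7 CPM) and KO library 3 (2.14 CPM) of that age. The other WT livers of 4 weeks had 24.2 and 46.6 CPM, and the other KO livers of 8 weeks 26.4 to 68.1 CPM. At 20 months library 1 of each genotype had the highest Arntl of its group, at 7.55 CPM in KO and 5.00 CPM in WT livers. The other livers of that age had 1.12 to 1.86 CPM. Dbp was at 11.1 and 9.02 CPM in that pair, against 51.0 to 78.9 CPM in the others. In deviations from group means over the 22 libraries, G6pc ran against Dbp (Pearson r = -0.66, Spearman rho -0.65) and Gys2 ran with it (0.64 and 0.64). KO libraries 1 and 2 of 8 weeks were the 2 highest KO livers for Pck1 and for G6pc at that age, and without them the log2 fold change was -0.27 for Pck1 and 0.19 for G6pc. Omitting KO library 1 and WT library 1 of 4 weeks, the log2 fold changes were -3.11 for Ppp1r3c (edgeR adjusted p = 5.70e-04), 1.23 for Slc2a2 (0.00334) and 1.20 for G6pc (0.0461), which were 3 calls among the 9. The part of clock phase in these values was not tested.

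**Figure D4:**
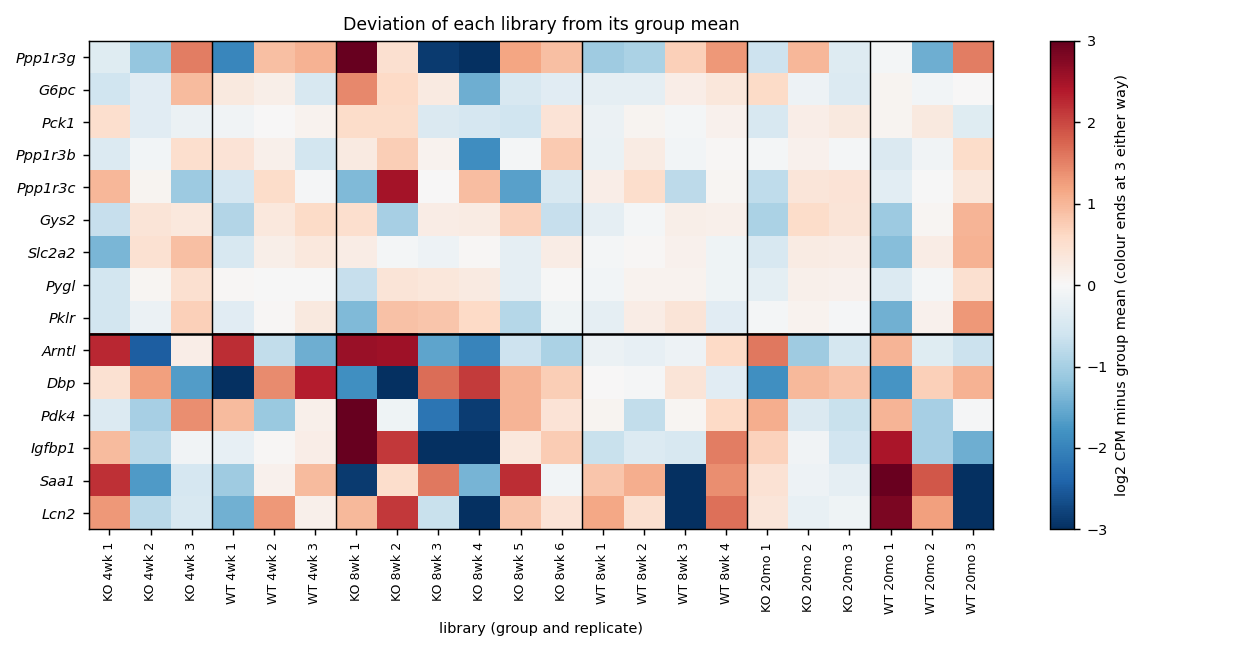
Log2 CPM minus the group mean in each of the 22 libraries for the 9 genes (above the heavy line) and 6 genes that mark clock phase, fasting and acute-phase response (below it), red above and blue below the mean. KO library 1 of 8 weeks combines high Ppp1r3g and G6pc with low Pklr and Ppp1r3c and with high Pdk4 and Igfbp1.

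The targeting subunits were set beside the fasting-linked genes Pdk4 and Igfbp1. Igfbp1 had 7797 CPM in KO library 1 of 8 weeks, the liver with 273 CPM of Ppp1r3g, and 20.9 CPM in KO library 4, with 0.598 CPM of Ppp1r3g. Across the 22 deviations Ppp1r3g ran with Pdk4 (r = 0.77, rho 0.56) and Igfbp1 (0.75, rho 0.54). Ppp1r3c ran against Pdk4 (-0.60, rho -0.73) but little with Igfbp1 (-0.18, rho -0.22), and Ppp1r3b had 0.44 (rho 0.21) with Pdk4 and 0.43 (rho 0.18) with Igfbp1. G6pc ran with Pdk4 (0.69, rho 0.44) and Igfbp1 (0.61, rho 0.31). Pck1 ran with Igfbp1 (0.62, rho 0.53) but less with Pdk4 (0.27, rho 0.05). Pklr ran against Igfbp1 (-0.63, rho -0.54), and Slc2a2 against Saa1 (-0.63, rho -0.58). These are descriptions over libraries that share their preparation and scaling, and feeding was not recorded.

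Each gene was set beside 10629 others by the same deviations. Pklr was most like Hcn3 (r = 0.94), whose exons it overlaps, and Tkfc (0.94), then Pygl (0.89), and Pygl was most like Vmac (0.91), Leap2 (0.90) and Pklr (0.89). Slc2a2 was nearest to Mdh2 (0.95), Lect2 (0.94) and Rgn (0.93), and Gys2 to Uqcc1 (0.91), Bcl2l13 (0.91) and Pdxk (0.90). Pck1 was nearest to Cdip1 (0.90), Gpld1 (0.89) and Epas1 (0.87), and G6pc to Fam222a (0.84), Lnx2 (0.82) and Mef2d (0.82). For Ppp1r3g the nearest were Ptp4a1 (0.93), Fmnl2 (0.89) and Adgrf5 (0.89), for Ppp1r3b Gstp3 (0.81), Nqo1 (0.79) and Zmat1 (0.78), and for Ppp1r3c Edc3 (0.76), Gucd1 (0.75) and Spata2l (0.73). Among the 9, the pair Pklr and Pygl was the closest, followed by Slc2a2 and Gys2 (0.69). Pck1 and G6pc, the 2 genes of glucose output, had an r of 0.24.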

How the data were processed

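Poly(A) RNA of 22 mouse livers was sequenced, and the authors deposited a table of whole-number counts by Ensembl gene for each library. Per the submitters' processing notes, the authors' tools were HISAT2 2.0.4 and HTSeq 0.6.1p1 with the GRCm38 build. The annotation release, strand setting and read filters are not given in the sources used here. Names of the 4-week files carry a paired-end mark, so a count there is taken as a read pair. Symbols, lengths and coordinates came from GENCODE M21 (GRCm38), which named 47224 of 47729 gene lines. Reads recorded outside genes (6.13% to 17.8%) or as ambiguous (3.80% to 7.30%) were left out of library totals.

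The fits used edgeR 4.0.16 under R 4.3.3: filterByExpr, TMM scaling and the 2-sided quasi-likelihood F-test, with Benjamini-Hochberg adjustment over all genes tested and a threshold of 0.05. Contrasts were KO over WT at each age, WT livers between ages, and the difference of the KO effect between 8 and 4 weeks in a fit of all 22 libraries. SE is the size of the log2 fold change over the square root of F. DESeq2 1.42.0, RLE and upper-quartile scaling, other count filters, 1 fit of all libraries, a replicate block and leaving out libraries were alternatives. RPKM is CPM per 1000 exon bases. Likeness is the Pearson correlation of log2 CPM (prior count 2) minus the group mean, over genes with a mean of at least 1. The fits were also run on simulated counts with known changes. These had the same spread for all genes and no outlying library, so error rates in the present data cannot be read from them. Libraries of 1 group differed from each other beyond sampling noise (chi-square per degree of freedom at least 8.34). The labels give 1 liver per library and no litter or cage, so p-values measure the spread between these samples. Floors and intervals cover counting error only.

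The members and the lists (4 of pathway genes, the rest of cell-type and state markers) were chosen with earlier results of these data known. The text names the 9 genes, Slc10a1, up to 12 pathway genes past the threshold by smallest adjusted p per comparison, the 3 genes most like each of the 9, and 6 state genes. Of the genes this rule picks, 2 are not reported here, though the counts include them.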

Additional observations from a re-analysis of the deposited data

Results flagged for a closer look

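The 9 genes in the 4 WT and the 6 KO livers of 8 weeks gave 18 sets of values. In CPM, 2 values stood apart from the rest of their set, by the gap to the next value over the range. No chance rate is given, because it would assume normally distributed values, and the sets share their livers. Ppp1r3g was at 272.9 CPM in KO library 1 of 8 weeks, with the next KO liver at 28.6 CPM. Ppp1r3c was at 84.5 CPM in KO library 2 of 8 weeks, with the next KO liver at 28.4 CPM. Both livers had high Arntl (44.9 and 43.7 CPM) and low Dbp (4.31 and 1.14 CPM), and the part of this in the values was not tested. In log2 deviations from the group mean, the Ppp1r3g value was 4.44, with the other KO livers at -4.15 to 1.19. The Ppp1r3c value was 2.50, with the others at -1.63 to 0.93. On that scale each gap was narrower than the spread of the other KO livers, so the flags hold for CPM only.

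Ppp1r3c was lower in all KO than in all WT livers at 4 weeks (log2 fold change -2.30) and higher in all KO than in all WT livers at 20 months (1.67). The difference between these ages was not tested, since the gene was chosen for its 20-month values.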

How the results depend on the processing

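At 4 weeks, 1200 genes were called, against 2048 with no filter, 537 with the replicate block, 2652 omitting WT and KO library 1, and 184 to 2012 with 1 library left out. The count of the 9 genes there was 1, against 2 with no filter (Slc2a2 added), 0 in 1 fit of all libraries, 0 with the block, 3 omitting library 1 of each genotype and 0 to 2 with 1 left out. Other pathway genes called numbered 15, against 26 by DESeq2, 33 with no filter, 9 with the block, 36 omitting library 1 of each genotype and 3 to 30 with 1 left out. At 8 weeks 4 genes were called, against 112 by DESeq2, 0 with the block, 1 with KO libraries 1 to 3 and 1 to 5 with 1 left out, and 0 pathway genes, against 2 by DESeq2. At 20 months 0 were called, against 47 by DESeq2 and 0 to 71 with 1 left out. For the difference between 8 and 4 weeks, 52 were called, against 371 by DESeq2, 30 with RLE scaling, 18 with no filter, 107 from the 4-week and 8-week libraries alone and 8 to 270 with 1 left out, and 0 pathway genes, against 3 by DESeq2 and 0 to 2 with 1 left out. Between 20 months and 8 weeks in WT livers the 9 held 2 calls, against 0 with no filter and 0 to 6 with 1 left out. The cause of these shifts was not tested.

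The following log2 fold changes turned direction against the values in the report. At 4 weeks Pck1 was -0.01 with upper-quartile scaling, -0.03 with the block and -0.30 omitting library 1 of each genotype, Pklr 0.00 omitting the same pair, and Gys2 -0.02 with upper-quartile scaling, 0.00 in the fit of all libraries and -0.03 omitting that pair. At 8 weeks Pck1 was -0.03 with the block, -0.20 with KO libraries 4 to 6 and -0.27 omitting KO libraries 1 and 2, G6pc -0.10 and Pygl -0.01 with KO libraries 4 to 6, Pklr 0.06 with KO libraries 1 to 3, and Slc2a2 0.01 with upper-quartile scaling. At 20 months, against WT library 3 alone, Pck1 was 0.09, Gys2 -0.32 and Pygl -0.14. In the difference between ages Pck1 was -0.04 by DESeq2 and by RLE scaling and -0.02 from the 4-week and 8-week libraries alone, and in WT livers between 8 and 4 weeks Ppp1r3b was 0.04 with no filter. With 1 library left out, the range crossed 0 at 4 weeks for Pck1 (-0.26 to 0.19), Pklr (-0.52 to 0.14), Gys2 (-0.31 to 0.30), Pygl (-0.16 to 0.32) and Ppp1r3g (-0.13 to 1.43), at 8 weeks for Pck1 (-0.08 to 0.14), Pklr (-0.34 to 0.04), Slc2a2 (-0.07 to 0.04) and Pygl (-0.04 to 0.16), and at 20 months for Ppp1r3g (-1.44 to 0.36). It also crossed 0 in the difference between ages for Pck1 (-0.15 to 0.31), G6pc (-0.33 to 0.73), Pklr (-0.28 to 0.41), Gys2 (-0.58 to 0.03) and Pygl (-0.27 to 0.24). In WT livers it did so between 8 and 4 weeks for Ppp1r3b (-0.27 to 0.20), and between 20 months and 8 weeks for Pklr (-0.70 to 0.64), Gys2 (-1.03 to 0.02) and Ppp1r3g (-0.23 to 1.43).

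The labels do not say whether same-numbered KO and WT libraries were paired. Their deviations correlated above 0.1 in 2 of 10 pairs, both at 20 months (0.44 for library 1 and 0.46 for library 3). With the replicate block Ppp1r3c at 4 weeks was -2.47 (adjusted p = 0.0524), and the calls of Got1 (0.0662) and Pfkl (0.0542) were lost there, as was that of Slc10a1 at 8 weeks (-2.64, adjusted p = 0.112).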
